A study of Mus musculus with 2 samples.

Results

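The genes described here are 10 regulators of cell division: the cyclin-dependent kinase (CDK) inhibitors Cdkn1a, Cdkn1b, Cdkn2a, Cdkn2b and Cdkn2c, the D-type cyclin Ccnd1, and the p53-linked genes Mdm2, Ccng1, Eda2r and Btg2. They were chosen by symbol, and all 10 were found among the 32285 gene identifiers of the libraries. Their levels were read in cycling and non-cycling stromal cells and macrophages of each library, after every cell had been cut to the same number of counted molecules.

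Cyclin D1, the product of Ccnd1, activates CDK4 and CDK6, which release E2F transcription factors from the retinoblastoma protein and let a cell enter S phase. Proteins of the INK4 group (from Cdkn2a, Cdkn2b and Cdkn2c) bind those kinases directly, whereas CIP/KIP proteins (from Cdkn1a and Cdkn1b) mainly inhibit cyclin-CDK complexes that act later. The transcription factor p53 is activated by DNA damage and other stress, induces Cdkn1a, Ccng1, Eda2r and Btg2, and also induces Mdm2, the ubiquitin ligase that degrades it. In marrow stromal cultures Cdkn1a and Cdkn2a are widely read as marks of arrest or senescence.

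Cultured bone marrow stromal cells of C57BL/6J mice were profiled as 1 library per genotype. The cKO library came from Prrx1-Cre+/-; Slc31a1flox/flox mice, in which a Cre active in limb mesenchyme removes floxed Slc31a1, the gene of a copper importer. The WT library came from Slc31a1flox/flox littermates without Cre, so the presence of Cre and the loss of Slc31a1 cannot be told apart. Femur and tibia marrow was grown in alpha-MEM containing 10% fetal bovine serum, non-adherent cells were taken off after 48 h, and no osteogenic induction was given in either group. The mice's age and number are not stated in the labels. With 1 library per genotype there is no replicate check and no test across samples. Every interval below is a 95% counting interval (exact Poisson for a level, exact conditional binomial for a ratio, exact Clopper-Pearson for a share), which leaves out differences between mice, cultures and captures.

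The deposited matrices held 126031142 unique molecular identifiers (UMIs, each standing for 1 captured mRNA molecule) in 6140 cKO barcodes and 152398639 UMIs in 9125 WT barcodes, and 11 barcodes occurred in both libraries. After filtering, 5263 cKO and 7637 WT cells were clustered. Cells carrying markers such as Prrx1, Col1a1 and Pdgfra are called mesenchymal-like here and are the stromal cells (1190 cKO and 1649 WT), and those with Csf1r, Adgre1 and C1qa are called macrophage-like (1830 cKO and 2164 WT). Sub-clusters led by markers of another cell type were left out of both classes, a step chosen after the data had been seen. Before it, the mesenchymal-like class held 1416 cKO and 3737 WT cells and the macrophage-like class 2625 cKO and 2848 WT cells. The labels name the cultures as mesenchymal stem cells, and both libraries thus held a macrophage-like class of over 1000 cells besides. Slc31a1 had 14.1 CPM (UMIs per 1000000 UMIs of the group) in cycling stromal cells of the cKO library and 39.9 CPM in those of the WT library, and 10.8 and 41.1 CPM in non-cycling ones, whereas in cycling macrophages it had 64.9 and 60.5 CPM. Which part of Slc31a1 the loxP sites flank is not stated in the labels, and 3' UMIs need not lie in the deleted part.

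Each cell with at least 10000 UMIs was thinned to exactly 10000. It was called cycling with at least 10 UMIs over 47 mitotic genes (Top2a, Mki67, Cdk1 and others) and non-cycling with at most 2, and cells between these limits were set aside. None of the 10 genes is in that list, and none was used for clustering. This gave 427 cKO and 549 WT cycling stromal cells, 463 cKO and 647 WT non-cycling stromal cells, 459 cKO and 532 WT cycling macrophages, and 225 cKO and 314 WT non-cycling macrophages. Thinning left out 53 cKO and 73 WT stromal cells but 901 cKO and 903 WT macrophages, so the macrophage values describe the deeper part of that class. Mki67, which belongs to the mitotic list and so describes the split only, stood at 278 CPM in cKO and 287 CPM in WT cycling stromal cells, against 1.73 and 3.40 CPM in non-cycling ones. Genes of S phase were not part of the call, so cells in S phase can be among the non-cycling ones. Over 26 S phase genes non-cycling macrophages had 1115 CPM in cKO and 877 CPM in WT. Non-cycling stromal cells had 308 and 305 CPM. The 2 classes are thus not split in a fully like way, and its part in the ratios below was not tested. Cycling cells were 37.6% of stromal cells in the cKO library (34.7 to 40.4) and 34.8% in the WT library (32.5 to 37.3). In macrophages they were 49.4% in cKO (46.2 to 52.7) and 42.2% in WT (39.4 to 45.0).

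The most division-linked of the 10 genes was Cdkn2c, which was higher in cycling cells of both classes and both libraries. Cdkn2a and Cdkn2b were much higher in stromal cells than in macrophages and were lower in cycling than in non-cycling stromal cells. Cdkn1a and Ccnd1 were lower in cycling stromal cells and higher in cycling macrophages over the whole groups, but for stromal cells this depended on the sub-cluster they were set against, and for macrophage Ccnd1 on the filter, the depth and the sub-cluster. Between genotypes the differences were smaller. Over the whole groups Cdkn1a, Mdm2 and Ccnd1 were moderately higher in cKO stromal cells, and Cdkn2a and Cdkn2b close to equal. In cycling stromal cells these differences shrank when the sub-clusters led by markers of another cell type were kept. In non-cycling stromal cells Cdkn1a was near equality within the sub-cluster led by H19, and Ccnd1 within those led by H19 and by Ibsp. With all UMIs Cdkn2a and Cdkn2b had ratios of cKO over WT below 1 within both of these sub-clusters.

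**Figure D1:**
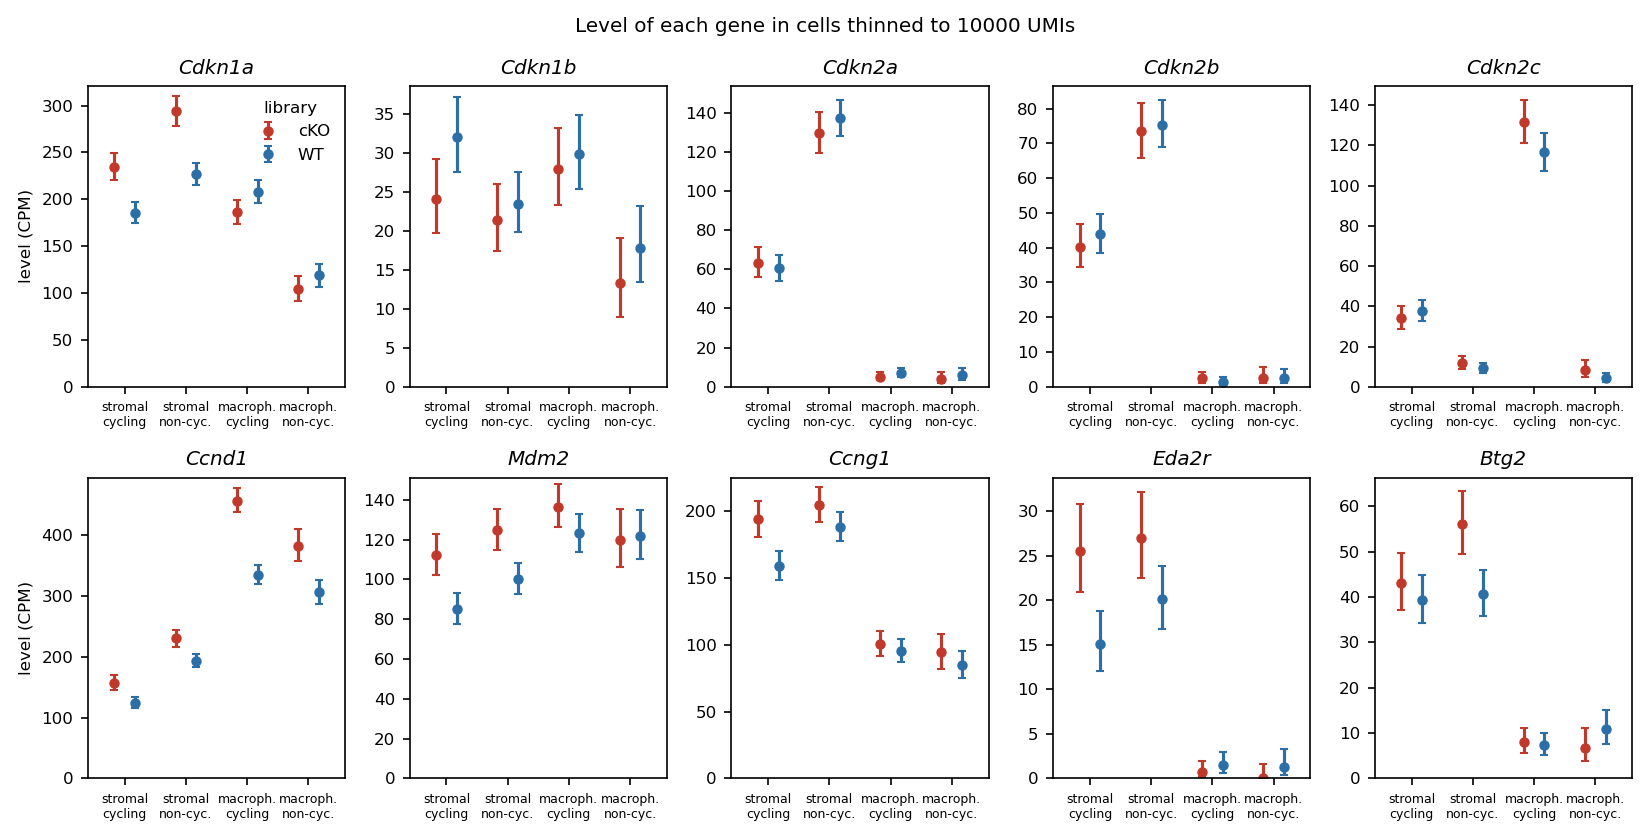
Level of each of the 10 genes in CPM (vertical axes, each starting at 0 and scaled per gene) in cycling and non-cycling mesenchymal-like (stromal) and macrophage-like cells thinned to 10000 UMIs, with the cKO library in red left of the WT library in blue and exact Poisson 95% intervals as bars. Cdkn2a, Cdkn2b and Eda2r sat under 10 CPM in all macrophage groups, and Cdkn2c exceeded 100 CPM in cycling macrophages only.

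Cdkn1a (GRCm38 chromosome 17, 29090976 to 29100727, plus strand) encodes p21, the best known effector of p53-dependent arrest. It overlaps AC167363.2 on the other strand. The reference holds 2 annotated starts for it. The 300 bases around the upstream one (GRCm38.p6, plus strand, chr17:29090729-29091028, RefSeq) are shown because they hold matches to the consensus of a p53 response element. The stretch in capitals is what the search returned as a p53 site, meaning 2 half-sites of the p53 consensus with at most 13 bases between them. It begins at position -73 from the start. The 10 bases right after it, tgacatgttc, miss the consensus by their first letter only, so the search left them out. The capitals therefore need not mark the response element itself or its limits. Only 24 of 32851 promoter windows of this length, 0.0731%, hold such a pair on either strand.
Cdkn1a: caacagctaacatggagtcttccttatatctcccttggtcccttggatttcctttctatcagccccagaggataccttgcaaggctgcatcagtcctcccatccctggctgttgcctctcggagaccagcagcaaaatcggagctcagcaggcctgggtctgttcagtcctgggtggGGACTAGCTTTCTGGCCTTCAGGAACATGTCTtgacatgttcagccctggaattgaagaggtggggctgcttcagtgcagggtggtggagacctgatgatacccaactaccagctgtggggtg
The match is a description of letters and does not show that the site is bound in these cells. Single half-sites were also present in the windows of Mdm2 and Ccng1, as in 8.36% of all windows.

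In stromal cells Cdkn1a was abundant in every group, at 235 CPM (220 to 250) in cycling and 294 CPM (279 to 310) in non-cycling cells of the cKO library, and at 186 CPM (175 to 198) in cycling and 227 CPM (215 to 239) in non-cycling cells of the WT library. The cycling cells were thus lower in each library, with ratios of cycling over non-cycling of 0.798 (0.735 to 0.867) in cKO and 0.819 (0.755 to 0.888) in WT. In macrophages the order was turned round. Cycling macrophages had 186.5 CPM and non-cycling ones 104 CPM in the cKO library, and 208 CPM and 119 CPM in the WT library, which gave ratios of 1.79 (1.54 to 2.07) and 1.75 (1.55 to 1.97). The macrophage ratio was 2.24 times the stromal ratio in cKO (1.90 to 2.64) and 2.14 times in WT (1.85 to 2.46).

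The lower stromal Cdkn1a level of cycling cells rested on which non-cycling cells they were set against. Non-cycling stromal cells came mainly from 2 sub-clusters, one led by H19, Cxcl14 and Cnn1 and one led by Slc13a5, Ibsp (a bone matrix gene) and Snhg12. Against the Ibsp sub-cluster, which had 424 CPM of Cdkn1a in cKO and 326 CPM in WT, the cycling cells had ratios of 0.554 in cKO and 0.570 in WT. Against the H19 sub-cluster, at 207.5 CPM in cKO and 198 CPM in WT, the ratios were 1.13 in cKO and 0.938 in WT, so the cKO direction turned. In macrophages the ratio was 1.73 and 1.84 in cKO and 1.65 and 1.86 in WT against the 2 larger non-cycling sub-clusters.

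Cdkn1b encodes p27, an inhibitor associated with quiescence, and was measured at low levels. Its stromal level was 24.1 CPM in cycling and 21.4 CPM in non-cycling cells of the cKO library, and 32.1 and 23.5 CPM in the WT library, with ratios of 1.13 (0.848 to 1.502) and 1.37 (1.09 to 1.71). Cycling macrophages were higher, with 27.9 CPM against 13.3 CPM in non-cycling macrophages of the cKO library and 29.9 against 17.8 CPM in the WT library. These are ratios of 2.09 (1.40 to 3.23) in cKO and 1.68 (1.23 to 2.32) in WT, from 30 and 56 UMIs in the non-cycling groups. With all UMIs of the same cells the Cdkn1b ratios were 2.07 (1.49 to 2.92) in cKO and 1.56 (1.23 to 1.998) in WT. They were smaller with cells thinned to 5000 UMIs, at 1.38 in cKO and 1.13 in WT. With 20000 UMIs they were 1.21 (0.549 to 3.17) and 1.26 (0.750 to 2.28).

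The INK4 genes Cdkn2a and Cdkn2b neighbour each other on chromosome 4, Cdkn2a from 89274471 to 89294653 and Cdkn2b from 89306299 to 89311039, both on the minus strand. Cdkn2a gives rise to a pair of unrelated proteins, p16Ink4a and p19Arf, from different starts and a shared end, so UMIs captured near the end of the transcript count both together. The windows of its 2 annotated starts (GRCm38.p6, minus strand, RefSeq) are shown because the counts cannot be divided between them: the upstream start at chr4:89294570-89294869, from which mouse p19Arf is made, and the downstream start at chr4:89282143-89282442, from which p16Ink4a is made. Capitals mark an E2F match (TTTCCCGC, TTTGGCGC or TTTGGCGG, searched on both strands), of which the upstream window holds 1, at position -99, and the downstream window none.
Cdkn2a upstream start: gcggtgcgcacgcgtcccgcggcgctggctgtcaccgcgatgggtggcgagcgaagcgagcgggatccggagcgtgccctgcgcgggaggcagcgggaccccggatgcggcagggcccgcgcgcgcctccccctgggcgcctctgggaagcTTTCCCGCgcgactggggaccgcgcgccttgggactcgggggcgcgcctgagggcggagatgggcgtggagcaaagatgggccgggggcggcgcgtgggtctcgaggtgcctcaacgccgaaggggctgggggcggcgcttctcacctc
Cdkn2a downstream start: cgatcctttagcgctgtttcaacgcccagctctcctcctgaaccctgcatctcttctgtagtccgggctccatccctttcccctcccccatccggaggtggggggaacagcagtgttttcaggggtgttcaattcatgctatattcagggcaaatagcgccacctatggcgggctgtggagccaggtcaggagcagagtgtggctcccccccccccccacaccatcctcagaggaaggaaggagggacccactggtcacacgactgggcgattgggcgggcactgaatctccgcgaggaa
Such a match occurs in 2.1% of the 32851 promoter windows. None was found in either of the windows of Cdkn2c.

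Cdkn2a was lower in cycling stromal cells. Its level was 63.2 CPM (55.9 to 71.2) in cycling and 130 CPM (119 to 140) in non-cycling cells of the cKO library, and 60.5 CPM in cycling and 137 CPM in non-cycling cells of the WT library. The ratios were 0.488 (0.421 to 0.564) in cKO and 0.441 (0.388 to 0.501) in WT. Cells set aside between the limits had 112 CPM in cKO and 111 CPM in WT, nearer to the non-cycling level. At equal depth 43.3% of cycling and 55.1% of non-cycling stromal cells of the cKO library held a Cdkn2a UMI, and 40.6% and 63.4% in the WT library. With all UMIs the shares were 84.3% and 89.2% in cKO, at medians of 71434 and 67146 UMIs, and 83.6% and 90.1% in WT, at medians of 59743 and 50100 UMIs.

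In macrophages Cdkn2a stood at 5.23 CPM in cycling and 4.0 CPM in non-cycling cells of the cKO library and at 7.14 and 6.05 CPM in the WT library. The share of macrophages with a UMI at equal depth was 5.23% and 4.0% in cKO and 6.95% and 5.73% in WT (all UMIs, 8.28% and 5.78% in cKO, 11.1% and 8.60% in WT, at group medians between 14416 and 18438 UMIs). The stromal level exceeded the macrophage level 32.4-fold in non-cycling cells of the cKO library (16.95 to 71.2) and 22.7-fold in those of the WT library (14.4 to 37.8). The 12 mesenchymal markers together reached 622 to 951 CPM in the 4 macrophage groups and 13000 to 17970 CPM in the 4 stromal groups, and at most 1 marker was at 0 in a macrophage group. Whether the macrophage UMIs of Cdkn2a came from stromal RNA was not tested.

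The lower Cdkn2a level of cycling cells held against both non-cycling sub-clusters. It was 0.737 of the H19 sub-cluster in cKO and 0.548 in WT, and 0.321 and 0.270 of the Ibsp sub-cluster, where Cdkn2a stood at 197 CPM in cKO and 224 CPM in WT. Cdkn2a was among the 10 leading genes of the Ibsp sub-cluster although it was kept out of the clustering. Cdkn2b, which encodes p15, behaved in the same direction, with 40.3 CPM in cycling and 73.4 CPM in non-cycling stromal cells of the cKO library and 43.9 and 75.4 CPM in the WT library. Its ratios were 0.549 (0.454 to 0.661) and 0.582 (0.497 to 0.681), and in macrophages it lay between 1.504 and 2.67 CPM.

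Cdkn2c encodes p18Ink4c and lies on chromosome 4 from 109660876 to 109667189. It had the steepest gradient. Cycling macrophages had 132 CPM (121 to 143) in cKO and 117 CPM (108 to 126) in WT, and non-cycling ones 8.44 CPM and 4.14 CPM, from 19 and 13 UMIs. The ratios were 15.6 (9.89 to 26.1) in cKO and 28.2 (16.3 to 53.2) in WT, and with all UMIs 20.5 (13.4 to 32.8) and 22.1 (14.8 to 34.7). At equal depth 60.3% of cycling and 7.56% of non-cycling macrophages of the cKO library held a Cdkn2c UMI, and 61.3% and 3.82% in the WT library (all UMIs, 73.4% and 8.44% in cKO, 74.3% and 6.69% in WT).

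Stromal Cdkn2c was higher in cycling cells as well, at 34.2 CPM against 11.7 CPM in non-cycling cells of the cKO library and 37.7 against 9.12 CPM in those of the WT library. These are ratios of 2.93 (2.13 to 4.08) and 4.14 (3.08 to 5.62). The macrophage ratio exceeded the stromal ratio 5.32-fold in cKO (3.06 to 9.24) and 6.81-fold in WT (3.66 to 12.7). Cells set aside between the limits had 14.7 CPM in cKO and 11.3 CPM in WT macrophages, between the levels of non-cycling and cycling cells. Stromal cells between the limits had 10.5 CPM in cKO and 8.16 CPM in WT, near the non-cycling stromal level and not above it. Within cycling cells the level was split by whether UMIs of 26 S phase genes (Mcm2, Pcna and others) were fewer than mitotic UMIs or not. In macrophages with fewer S phase UMIs Cdkn2c had 175 CPM in cKO and 149 CPM in WT, against 57.4 and 57.1 CPM in the others. In stromal cells these values were 35.9 and 39.3 CPM, against 25 and 28.9 CPM.

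Ccnd1, on chromosome 7 from 144929931 to 144939925, overlaps LTO1 on the other strand, and the strand setting of the counting is not given in the sources here. It was lower in cycling stromal cells, at 157 CPM against 230.5 CPM in non-cycling cells of the cKO library and 124 against 193 CPM in those of the WT library. The ratios were 0.682 (0.618 to 0.752) in cKO and 0.645 (0.586 to 0.708) in WT, and with all UMIs 0.599 and 0.597, past a 1.5-fold difference in both libraries. In macrophages, which had more Ccnd1, cycling cells stood at 457 CPM and non-cycling cells at 383 CPM in the cKO library, and at 335 and 306 CPM in the WT library. Those ratios were 1.19 (1.10 to 1.29) and 1.10 (1.01 to 1.19), and they lay below 1 in both libraries under the stricter cell filter (log2 -0.10 in cKO and -0.26 in WT) and in WT with 20000 UMIs per cell (0.864, 0.752 to 0.997).

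Ccnd1 also followed the sub-clusters. In stromal cells of the Ibsp sub-cluster it had 370 CPM in cKO and 379 CPM in WT, and the cycling cells were at 0.425 and 0.328 of these. Against the H19 sub-cluster, at 140 CPM in cKO and 133 CPM in WT, the cycling ratios were 1.12 in cKO (0.997 with all UMIs) and 0.935 in WT. In macrophages the ratio was 1.95 in cKO and 1.42 in WT against the non-cycling sub-cluster led by Pde7b, Ddx60 and Hpse. It was 1.10 and 0.901 against the non-cycling sub-cluster led by Fat3, Mmp12 and Lgals3. The Fat3 sub-cluster held 76.4% of non-cycling cKO macrophages and 50.3% of non-cycling WT macrophages.

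**Figure D2:**
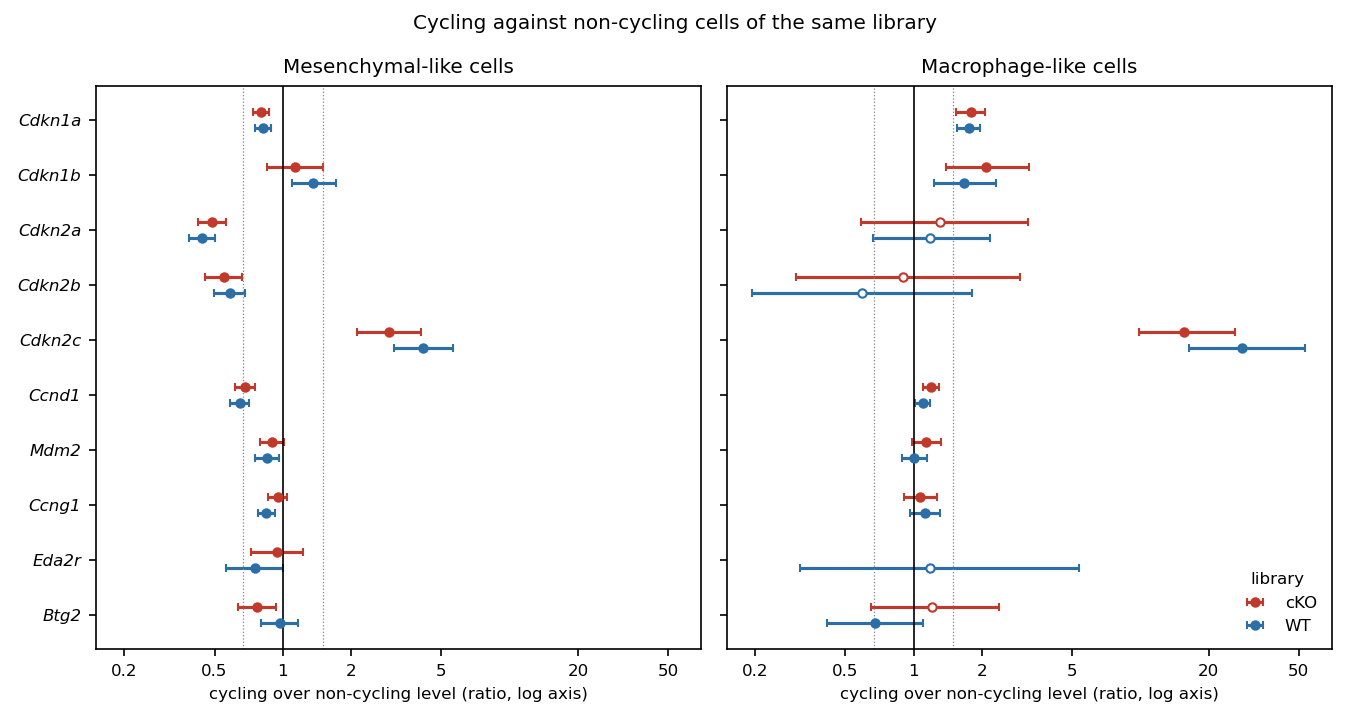
Ratio of the level in cycling cells over that in non-cycling cells of the same library (horizontal log axis) for each of the 10 genes, with cKO in red above WT in blue, exact 95% counting intervals, and dotted lines at a 1.5-fold difference. Open points are genes under 10 CPM in both groups, and Eda2r in cKO macrophages, with 0 UMIs in non-cycling cells, is not drawn. Cdkn2c lay right of 1 in both panels, whereas Cdkn1a lay left of 1 in mesenchymal-like cells (0.798 and 0.819) and right of it in macrophage-like cells (1.79 and 1.75).

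None of the p53-linked Mdm2, Ccng1, Eda2r and Btg2 differed 1.5-fold between cycling and non-cycling stromal cells in both libraries, beside 11.1% of all genes. In macrophages only Mdm2 and Ccng1 had at least 10 CPM in both libraries. Neither differed 1.5-fold there, beside 12.7% of all genes. At those shares, finding none among so few genes says nothing particular of them. Cdkn1a, also induced by p53, is described above. Mdm2, the ligase that limits p53, had 112 CPM in cycling and 125 CPM in non-cycling stromal cells of the cKO library and 85.3 and 100.2 CPM in the WT library, with ratios of 0.899 (0.794 to 1.02) and 0.851 (0.754 to 0.960). In macrophages it had 137 and 120 CPM in cKO and 123 and 122 CPM in WT. Ccng1, cyclin G1, had 194 CPM in cycling and 204.5 CPM in non-cycling stromal cells of the cKO library and 159 and 188 CPM in the WT library. Its macrophage levels were 101 and 94.2 CPM in cKO and 95.5 and 84.7 CPM in WT, so it was about equal in cycling and non-cycling cells and lower than in stromal cells of the same state.

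Eda2r encodes a receptor of the tumour necrosis factor receptor family that binds ectodysplasin A2. It was read in stromal cells, with 25.5 CPM in cycling and 27.0 CPM in non-cycling cells of the cKO library and 15.1 and 20.1 CPM in the WT library. In macrophages it had 3 UMIs in cycling and 0 in non-cycling cells of the cKO library and 8 and 4 UMIs in the WT library. The count of 0 allows a level of up to 1.33 CPM, taking 3 counts as the limit. Btg2, an antiproliferative gene of the BTG/TOB family, had 43.1 and 56.2 CPM in cycling and non-cycling stromal cells of the cKO library and 39.3 and 40.7 CPM in the WT library. A second random thinning put its log2 ratio of cycling over non-cycling cKO stromal cells at 0.10, against -0.38 in the first, and all UMIs gave a ratio of 0.846. In macrophages Btg2 lay between 6.67 and 10.8 CPM.

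A gene was counted as higher or lower between cycling and non-cycling cells when it had at least 10 CPM in either group and differed at least 1.5-fold in the same direction in both libraries. In stromal cells 1 of 10 members was counted as higher (Cdkn2c) and 2 as lower (Cdkn2a and Cdkn2b). Over all 8924 genes measured there the shares were 8.64% higher and 2.47% lower, 11.1% in either direction. In macrophages 3 of 6 measured members were counted as higher (Cdkn1a, Cdkn1b and Cdkn2c) and none as lower, beside 10.5% higher and 2.23% lower of 8703 genes, 12.7% in either direction. Cdkn2c reached 10 CPM only through the cycling group in macrophages of both libraries and in WT stromal cells. With cells thinned to 5000 UMIs only Cdkn2c passed in macrophages, since Cdkn1a was at 1.45 in WT and Cdkn1b under 1.5-fold in both libraries, and with 20000 UMIs Cdkn1a and Cdkn2c passed. Without thinning Cdkn1a, Cdkn1b and Cdkn2c passed. The median log2 ratio of cycling over non-cycling stromal cells was -0.24 over the members and 0.06 over all genes in cKO, and -0.26 and 0.06 in WT. In macrophages it was 0.55 over 6 members and 0.07 over all genes in cKO, and 0.17 over 7 members and 0.06 in WT, where Btg2 passed 10 CPM.

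Between the libraries, cKO over WT, the same rule of 10 CPM and 1.5-fold was applied in each of the 4 cell groups. In cycling stromal cells 1 of 10 members passed it, Eda2r as higher, beside 3.41% of 9071 genes in either direction, 1.65% higher and 1.75% lower. No member passed it in non-cycling stromal cells (3.18% of 8766 genes, 1.71% higher and 1.47% lower) or in cycling macrophages, where 6 were measured (4.02% of 8896 genes, 1.37% higher and 2.65% lower). In non-cycling macrophages 1 of 6 did, Btg2 as lower, beside 7.61% of 8597 genes, 2.77% higher and 4.84% lower. Eda2r had 25.5 CPM in cKO and 15.1 CPM in WT cycling stromal cells, a ratio of 1.69 (1.26 to 2.27) from 109 and 83 UMIs. With all UMIs of the same cells it had 24.9 and 18.6 CPM, a ratio of 1.34 (1.202 to 1.49), under the threshold. Btg2 in non-cycling macrophages had 6.67 CPM in cKO and 10.8 CPM in WT, a ratio of 0.616 (0.312 to 1.16) from 15 and 34 UMIs, and with all UMIs 8.99 and 9.83 CPM, a ratio of 0.914. It thus passed 10 CPM only through the WT library, where it was higher. With all UMIs it reached 10 CPM in neither library.

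**Figure D3:**
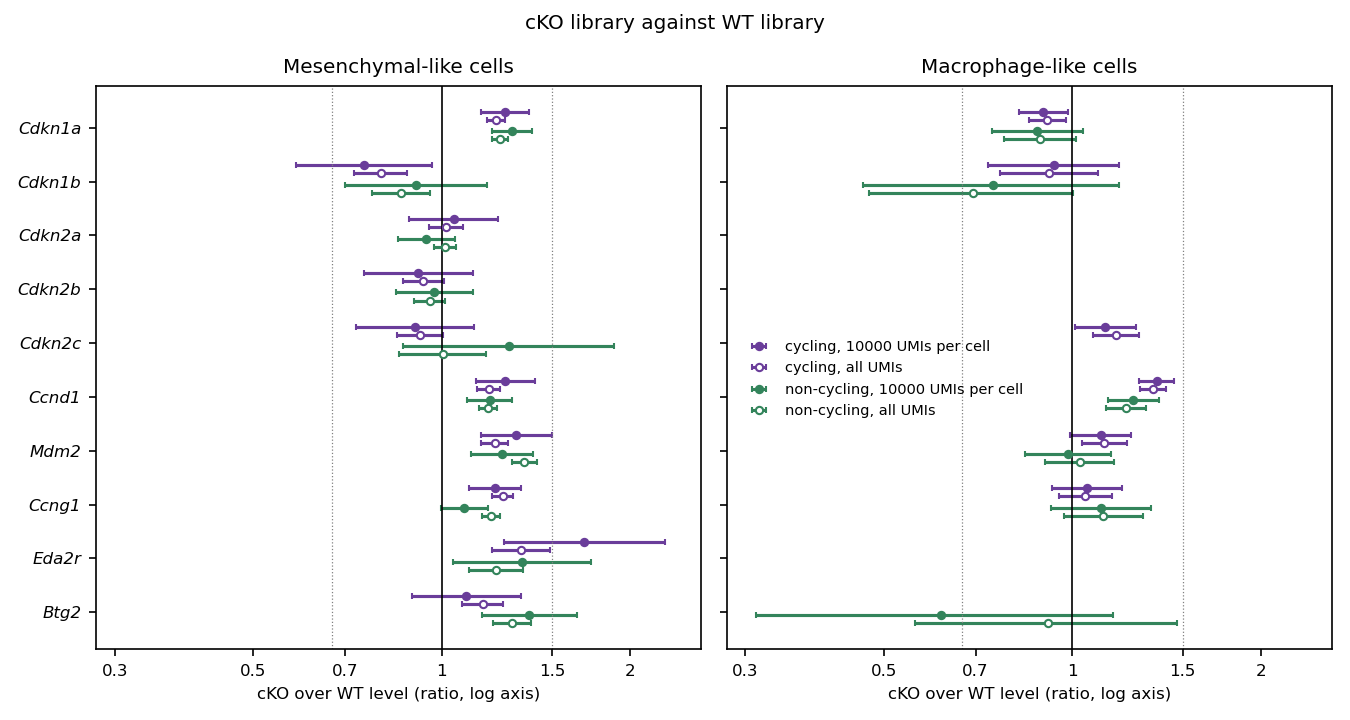
Ratio of the cKO level over the WT level (horizontal log axis) for each of the 10 genes in cycling (purple) and non-cycling (green) cells, with filled points for cells thinned to 10000 UMIs, open points for all UMIs of the same cells, exact 95% counting intervals and dotted lines at a 1.5-fold difference. Only groups with at least 10 CPM in a library are drawn. With all UMIs every stromal point lay within the dotted lines, and Cdkn1a, Ccnd1, Mdm2, Ccng1, Eda2r and Btg2 lay right of 1.

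In non-cycling stromal cells Eda2r had a ratio of cKO over WT of 1.34 (1.04 to 1.73), or 1.22 (1.11 to 1.35) with all UMIs, and 0.899 (0.703 to 1.15) when the mixed sub-clusters were kept. The Cdkn1a values given above make ratios of 1.26 (1.16 to 1.38) in cycling and 1.30 (1.203 to 1.40) in non-cycling stromal cells. Mdm2 had 1.32 (1.16 to 1.498) and 1.25 (1.11 to 1.40), and Ccng1 1.22 (1.11 to 1.34) and 1.09 (0.998 to 1.19). Btg2 had 1.10 (0.895 to 1.34) and 1.38 (1.16 to 1.65), but a second random thinning put the non-cycling value at a log2 of -0.05, and all UMIs gave 1.30 (1.21 to 1.39). Ccnd1 had 1.26 (1.13 to 1.41) and 1.19 (1.10 to 1.30), and within the larger non-cycling sub-clusters it was nearer to equality, as given below. With the mixed sub-clusters kept, the cycling log2 ratios were 0.10 for Cdkn1a, 0.19 for Mdm2 and 0.02 for Ccnd1. Without them they were 0.34, 0.40 and 0.34. The non-cycling ones were 0.20 for Cdkn1a and 0.07 for Ccnd1, against 0.37 and 0.26 without them.

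Over the whole groups the INK4 genes were near equality, with Cdkn2a at 1.05 (0.887 to 1.23) in cycling and 0.945 (0.851 to 1.05) in non-cycling stromal cells, and with all UMIs at 1.01 (0.954 to 1.08) and 1.01 (0.970 to 1.05). Within sub-clusters Cdkn2a and Cdkn2b had lower ratios with all UMIs, as given below. Cdkn2b was at 0.918 and 0.974, and Cdkn2c at 0.907 and 1.28 (with all UMIs 0.923 and 1.00). Cdkn1b was lower in cKO cycling stromal cells, at 0.752 (0.584 to 0.965), and at 0.910 (0.699 to 1.18) in non-cycling ones. Over the 10 genes the median log2 ratio was 0.21 in cycling and 0.29 in non-cycling stromal cells, where the medians over all genes were -0.02 and -0.01. The median depth of these cells also differed, at 71434 UMIs in cKO and 59743 in WT cycling cells and 67146 and 50100 in non-cycling cells, before thinning. Its part in the difference was not tested beyond the thinning itself.

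In macrophages, where Slc31a1 had cKO over WT ratios of 1.07 in cycling and 1.17 in non-cycling cells, Cdkn1a had ratios below 1. They were 0.898 (0.820 to 0.983) in cycling and 0.879 (0.744 to 1.04) in non-cycling macrophages, and the macrophage ratio was 0.711 (0.628 to 0.805) and 0.679 (0.567 to 0.812) times the stromal one. The cycling Cdkn1a ratio was 1.03 with cells thinned to 5000 UMIs and 1.01 with the members among the variable genes. The non-cycling Cdkn1a ratio passed 1.5-fold as lower with 20000 UMIs (0.586, 0.371 to 0.904), under the stricter filter (0.666) and with doublets kept (0.655). Mdm2 had ratios of 1.11 (0.993 to 1.24) and 0.984 (0.839 to 1.15), and Ccng1 1.05 and 1.11. Ccnd1 was higher in cKO macrophages too, at 1.36 (1.28 to 1.45) in cycling and 1.25 (1.14 to 1.37) in non-cycling cells. Its macrophage ratio was 1.08 (0.953 to 1.22) and 1.05 (0.927 to 1.19) times the stromal one, so a difference between the classes was not detectable at this depth.

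The mixture of sub-clusters moved with genotype in the non-cycling groups. The Ibsp sub-cluster made up 40.2% of non-cycling stromal cells in cKO and 24.3% in WT, and the H19 sub-cluster 57.7% and 71.9%. Splitting the cells, a step added after the data were seen, gave Cdkn1a ratios of cKO over WT with all UMIs of 1.03 (0.985 to 1.07) in the H19 sub-cluster and 1.23 (1.17 to 1.28) in the Ibsp sub-cluster. In the cycling sub-cluster led by Hist1h1b, Prc1 and Birc5, which held 87.6% of cKO and 87.4% of WT cycling stromal cells, the ratio was 1.24 (1.2 to 1.28). At equal depth the Cdkn1a ratios were 1.05 (0.941 to 1.17), 1.30 (1.16 to 1.46) and 1.27. Mdm2 with all UMIs had ratios of 1.34 (1.26 to 1.43) in the H19, 1.25 (1.16 to 1.34) in the Ibsp and 1.22 (1.16 to 1.29) in the cycling sub-cluster. At equal depth these were 1.37 (1.17 to 1.60), 1.05 (0.877 to 1.25) and 1.32 (1.15 to 1.52), so the Ibsp difference was not detectable there. Ccng1 had 1.13, 1.19 and 1.24 with all UMIs, and at equal depth 1.03 (0.921 to 1.16), 1.01 (0.879 to 1.16) and 1.18 (1.07 to 1.31).

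Ccnd1 with all UMIs had ratios of cKO over WT of 1.06 (1.01 to 1.12) in the H19, 0.945 (0.906 to 0.986) in the Ibsp and 1.17 (1.12 to 1.22) in the cycling sub-cluster, and at equal depth 1.06 (0.926 to 1.201) in the H19 and 0.976 (0.873 to 1.09) in the Ibsp sub-cluster. Cdkn2a with all UMIs, near equality over the whole non-cycling group, had 0.818 (0.767 to 0.872) in the H19, 0.922 (0.871 to 0.977) in the Ibsp and 0.961 (0.900 to 1.03) in the cycling sub-cluster. At equal depth these were 0.777 (0.662 to 0.910), 0.880 (0.758 to 1.02) and 0.989 (0.831 to 1.18). Cdkn2b with all UMIs had 0.885 (0.8195 to 0.956), 0.931 (0.8515 to 1.02) and 0.898 (0.828 to 0.973) in the same order. At equal depth its ratios were 1.0 (0.834 to 1.198), 0.868 (0.684 to 1.10) and 0.862 (0.693 to 1.07). In non-cycling macrophages Ccnd1 with all UMIs had 0.867 (0.719 to 1.04) in the Pde7b sub-cluster, with 50 cKO cells, and 1.13 in the Fat3 sub-cluster. In cycling macrophages of their main sub-cluster it had 1.31. At equal depth these Ccnd1 ratios were 0.992 (0.798 to 1.225), 1.12 (1.003 to 1.25) and 1.32.

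**Figure D4:**
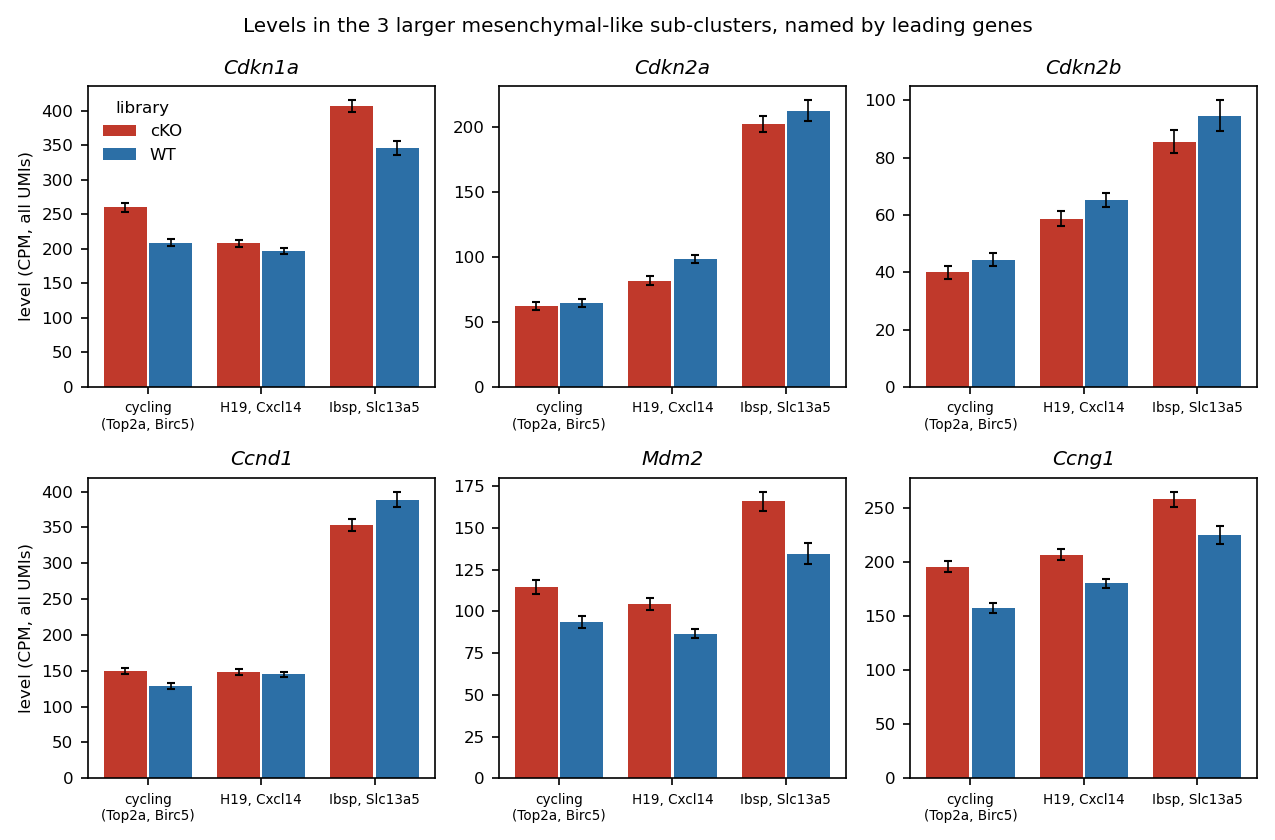
Level (bars, CPM from all UMIs, axes starting at 0) of 6 genes in the 3 larger mesenchymal-like sub-clusters, the cycling one and those led by H19 and Ibsp, with cKO in red left of WT in blue and exact Poisson 95% intervals. The Ibsp sub-cluster was highest for each of the 6 genes in both libraries.

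Other genes of the same pathways were read from 5 lists. Counted in 1 library at a time, 11.7% of all genes measured in stromal cells of the cKO library were at least 1.5-fold higher in cycling cells and 5.24% lower, and 11.2% and 4.27% in the WT library. In macrophages these shares were 14.6% and 4.81% in cKO, and 14.9% and 5.14% in WT. The counts of each list stand beside these shares, and say nothing particular of a list by themselves. Of 3 other CDK inhibitors, 2 were measured, and both were higher in cycling cells of either class: in stromal cells Cdkn2d, which encodes p19Ink4d, had 21.6 against 9.07 CPM in cKO and 25.9 against 7.73 CPM in WT, and Cdkn3, a CDK phosphatase, had 45.7 against 4.32 CPM and 39.2 against 2.01 CPM. In stromal cells both reached 10 CPM in the cycling group only, so they entered the count through the group in which they were high. Neither gene differed 1.5-fold between the libraries where it had at least 10 CPM. Over all genes the shares were 3.41% in cycling stromal cells, 4.02% in cycling macrophages and 7.61% in non-cycling macrophages. Among 17 D cyclin, CDK and retinoblastoma family genes, 8 of 16 measured were at least 1.5-fold higher in cycling stromal cells and 1 lower in each library. Those with the largest ratios were the E2F repressors E2f7 (35.8 against 3.02 CPM in cKO, 43.9 against 2.78 CPM in WT) and E2f8, the cyclin Ccne2, and Rbl1. E2f7 too reached 10 CPM in cycling stromal cells only. In macrophages 9 of 17 were higher in cKO and 11 of 17 in WT, with none lower.

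The 26 other p53 targets did not share 1 direction between cycling and non-cycling cells. In stromal cells 3 of 21 measured were higher and 5 lower in cKO, and 3 of 20 higher and 3 lower in WT, with medians of log2 -0.09 and -0.06. Trp53inp1, a p53-induced nuclear protein gene, was lower in cycling stromal cells, at 26.0 against 58.8 CPM in cKO and 24.6 against 55.6 CPM in WT. Ckap2, a spindle protein gene, was higher, at 78.9 against 7.99 CPM and 71.6 against 5.10 CPM. It reached the minimum of 10 CPM in the cycling group only. Between the libraries the median log2 was 0.08 in cycling stromal cells, where 2 of 19 were higher and none lower (1.65% and 1.75% of all genes), and 0.10 in non-cycling ones, where 1 of 21 was higher and 1 lower (1.71% and 1.47% of all genes). The 2 were Gadd45a, a growth arrest gene (19.9 CPM in cKO and 10.8 CPM in WT, a ratio of 1.85), and Gdf15, a stress-induced cytokine gene (47.8 and 31.0 CPM, 1.54). In cycling macrophages the median was -0.06, against -0.04 over all genes. There 1 of 22 was higher in cKO and none lower, beside 1.37% and 2.65% of all genes. That gene was again Gadd45a, at 26.1 CPM in cKO against 13.4 CPM in WT.

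Trp53 itself, the gene of p53, had 128 CPM in cKO and 114 CPM in WT cycling stromal cells, a ratio of 1.12. Among p53 and 9 of its regulators 2 of 10 were 1.5-fold higher in cycling stromal cells in each library, and the checkpoint kinase Chek1 had the largest ratio, 2.64 in cKO and 2.80 in WT. No gene of that list differed 1.5-fold between the libraries in stromal cells, beside 3.41% of all genes in cycling and 3.18% in non-cycling ones. At those shares, finding none in so short a list says nothing particular of it. Non-cycling macrophages also differed in S phase genes, with 1115 CPM over the list in cKO and 877 CPM in WT, whose part in these values was not tested. In these cells 2 of 9 regulators were lower in cKO, beside 4.84% of all genes, namely Atm (18.2 and 28.3 CPM) and Chek2 (13.8 and 21.7 CPM). Of 6 other BTG/TOB and GADD45 genes, Tob1 had 29.8 CPM in cKO and 19.2 CPM in WT non-cycling stromal cells, a ratio of 1.56, the one of the list past 1.5-fold between the libraries in that group, where 1.71% of all genes were higher.

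Outside these classes the levels were read with all UMIs, in classes of very different size and depth. Endothelial-like cells (87 cKO and 123 WT) had a Ccnd1 level of 640 CPM in cKO and 816 CPM in WT, and 302 and 381 CPM of Cdkn1a, against 276 and 223 CPM over all mesenchymal-like cells. Btg2 had 262 CPM in 63 cKO and 128 CPM in 147 WT B cell-like cells, 115 and 88.2 CPM in T or NK cell-like cells, and 89.0 and 94.7 CPM in neutrophil-like cells. At equal depth (3000 UMIs per cell) Btg2 had 265 and 131 CPM in B cell-like, 108 and 97.2 CPM in T or NK cell-like and 126 and 154 CPM in neutrophil-like cells, so the order of these classes in WT depended on the depth. Cdkn1b had 78.5 and 62.4 CPM in T or NK cell-like and 50.6 and 53.3 CPM in neutrophil-like cells, and at equal depth 78.4 and 50.9 CPM and 50.7 and 63.3 CPM. Cdkn2a stood at 105 CPM in cKO and 103 CPM in WT mesenchymal-like cells and at 3.91 and 3.57 CPM in neutrophil-like cells. It had 24.9 and 12.8 CPM in endothelial-like and 10.6 and 37.8 CPM in B cell-like cells. Cdkn2b had 58.7 and 61.6 CPM in mesenchymal-like and 25.9 and 25.3 CPM in endothelial-like cells, and 19.5 CPM in WT B cell-like cells. Whether these UMIs outside the mesenchymal-like class came from stromal RNA was not tested.

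Genes with the most similar profile were taken over 13 pseudobulks of class and library (each of at least 50 cells, unequal in depth and sharing their library), among 10424 genes. The Pearson correlation of log2(CPM + 1) was highest with Cdkn1a for Plpp2 (0.971), Samd4b, Bicd2, Mex3d and Nudcd2 (0.953), with Ccng1 for Thyn1 (0.980), Lgals1, Rsl1d1, Cct8 and Aars (0.960), and with Ccnd1 for Enc1 (0.973), Eif5a2, Scoc, Bola2 and Rtn4 (0.955). These are descriptions over classes, without a test.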

How the data were processed

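Droplet single-cell RNA-seq (10x Genomics Chromium 3' kit, v3 chemistry per the labels) was made from 1 cKO and 1 WT culture of adherent marrow cells. Each deposited matrix gives whole, unscaled UMI counts for every gene in each barcode; the matrix headers name Cell Ranger 7.1.0 as the writer. The submitters' processing notes list the mm10 (GRCm38) build and Seurat, without their roles. Gene coordinates came from GENCODE M21, in which 32158 of 32285 identifiers were found, and promoter windows from RefSeq (GRCm38.p6, 250 bases before to 50 after a start, 9 of 10 members matched). The members and all lists were chosen with earlier results of these data known.

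Cells with at least 500 genes, 1000 UMIs and at most 15% mitochondrial UMIs were kept. Scrublet marked 2 cells per library (0.0363% of cKO and 0.0245% of WT cells), which had not worked, so the 243 cKO and 534 WT cells with the highest scores (0.8% per 1000 cells) were removed. Cells were clustered with scanpy 1.11.5 and leidenalg 0.10.2 (2000 variable genes without the 10 members, 30 components, 15 neighbours, resolution 0.5) and named from marker lists. Each class was re-clustered, and sub-clusters with more markers of another class than of their own among their 10 leading genes were left out.

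UMIs were summed per class, state and library, and CPM is the count per 1000000 of that sum. No test was possible with 1 library per genotype, so the call rule was a 1.5-fold difference with at least 10 CPM in either group. Named genes were the 10 members, Slc31a1, Mki67 and Top2a, up to 4 genes per list and comparison with the largest absolute log2 ratio, and 5 genes per correlation. Other genes are named only as leading genes of clusters or as markers. The ratio and thinning steps were tested on simulated data. Intervals and the limit of 3 counts cover counting error only. Alternatives covered thinning, the cycling call, cell filter, doublets, clustering, scaling and the minimum level.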

Additional observations from a re-analysis of the deposited data

Results flagged for a closer look

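Cdkn1a and Ccnd1 had opposite directions between cycling and non-cycling cells in the 2 classes, in both libraries, over the whole groups. The difference was not tested across samples, since each class has 1 library per genotype. For Cdkn1a the log2 ratio of cycling over non-cycling was -0.33 in cKO and -0.29 in WT mesenchymal-like cells, and 0.84 in cKO and 0.81 in WT macrophage-like cells. For Ccnd1 it was -0.55 in cKO and -0.63 in WT mesenchymal-like cells, and 0.25 in cKO and 0.13 in WT macrophage-like cells. With cycling stromal cells taken as the sub-cluster with the highest mitotic level, an alternative chosen after seeing the data, the stromal Cdkn1a values were -0.07 in cKO and -0.06 in WT. Against the H19 sub-cluster of non-cycling stromal cells the cKO ratios were 1.13 for Cdkn1a and 1.12 for Ccnd1 (0.997 with all UMIs). The macrophage Ccnd1 log2 ratio was -0.10 in cKO and -0.26 in WT under the stricter cell filter. In WT macrophages the Ccnd1 ratio was 0.864 (0.752 to 0.997) with 20000 UMIs per cell and 0.901 against the Fat3 sub-cluster.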

How the results depend on the processing

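No paired analysis was possible because each genotype has 1 library. The counts of members past 1.5-fold between cycling and non-cycling stromal cells stayed within 1.5 times the reported count in each alternative run, and in macrophages that count was 1 with cells thinned to 5000 UMIs. Between cKO and WT, the 1 member of cycling stromal cells (Eda2r) became 0 with 5000 UMIs, no thinning, a second thinning seed, the mean of per-cell CPM, resolution 1.0, members among the variable genes, and mixed sub-clusters kept (chosen after seeing the data). With 20000 UMIs (Eda2r 1.23, 1.01 to 1.51) and the stricter filter (Eda2r 1.34) the 1 member was Cdkn1b as lower instead. In non-cycling stromal cells the count of 0 became 1 with the stricter filter and with resolution 1.0. In cycling macrophages 0 became 1 with 20000 UMIs and 2 without the minimum of 10 CPM. In non-cycling macrophages the 1 member (Btg2) became 0 with 5000 UMIs, no thinning, a second seed, per-cell means, wider cycling limits, resolution 1.0 and members among the variable genes, 2 with doublets kept and 4 without the minimum. With 20000 UMIs (Btg2 0.762) and the stricter filter the 1 member was Cdkn1a as lower, with mixed sub-clusters kept Btg2 as higher, and by sub-cluster Cdkn2c as higher. The Btg2 log2 ratio in non-cycling macrophages was -0.70, and turned to 0.14 at resolution 1.0, 0.13 with members among the variable genes and 0.74 with mixed sub-clusters kept. The causes were not tested. A second thinning seed moved 14 single ratios beyond their intervals and no thinning moved 3. Moved by the second seed were Mdm2 and Ccnd1 of cKO over WT in cycling stromal cells (log2 0.15 and 0.16; all UMIs, ratios of 1.22 and 1.19) and Cdkn1a of cycling over non-cycling WT stromal cells (log2 -0.48; all UMIs, a ratio of 0.803). With 20000 UMIs per cell only 21 cKO and 32 WT non-cycling macrophages were left. The planned cycling call by sub-cluster could not be run for stromal cells, in which no sub-cluster reached the limit. With mixed sub-clusters kept, WT cycling stromal cells carried 960 CPM of neutrophil markers.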
